A study of Mus musculus with 6 samples.

Results

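The 10 genes described here are the Notch receptors Notch1, Notch2, Notch3 and Notch4, the Jagged ligands Jag1 and Jag2, and the target genes Hes1, Hey1, Hey2 and Heyl. They were taken by symbol from the 36870 distinct symbols of the deposited table, in which each has 1 row. RNA-seq had been performed on BMMSCs, bone marrow mesenchymal stem cells of C57BL/6 mice grown as the adherent cells of flushed marrow, with 3 libraries of a control group and 3 of a group given siRNAs against both Tet1 and Tet2 (siTet1/Tet2). Control cells carried non-targeting siRNAs according to the sample labels, whereas the sequencing methods call them vehicle-treated. Cells were selected by adherence to plastic with no sort, and neither the number nor the age of the mice behind these libraries is given, so the spread between libraries may be technical. Levels are in RPKM, read numbers corrected for gene length and for the mapped reads of the library, so that levels of different genes can be compared. From the low RPKM values the depth was estimated at between 32200000 and 38400000 reads per library.

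Notch receptors are membrane proteins that bind Jagged or Delta-like ligands on a neighbouring cell. Binding exposes the receptor to the protease ADAM10 and then to gamma-secretase, and the intracellular domain set free joins the DNA-binding protein RBPJ and a Mastermind coactivator on target genes such as Hes1 and Hey1, which encode transcriptional repressors. In marrow stroma the pathway is known for holding mesenchymal progenitors back from the osteoblast fate, and macrophages carry Notch receptors as well.

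TET proteins oxidise methylated cytosine, which in mammals lies mostly in CpG dinucleotides, so the promoter windows of the 3 receptors whose RNA differed between the groups are shown with each CpG in capitals. Windows run 5′ to 3′ on the gene strand from 250 bases before the start to 50 bases after it (RefSeq, GRCm38.p6), and 7 of the 10 genes have one. The Notch1 window, set at a RefSeq start, lies inside the bounds given below for the gene, which are those of GENCODE M21. No DNA methylation was measured in these libraries.
Notch1, chr2:26503773-26504072, minus strand: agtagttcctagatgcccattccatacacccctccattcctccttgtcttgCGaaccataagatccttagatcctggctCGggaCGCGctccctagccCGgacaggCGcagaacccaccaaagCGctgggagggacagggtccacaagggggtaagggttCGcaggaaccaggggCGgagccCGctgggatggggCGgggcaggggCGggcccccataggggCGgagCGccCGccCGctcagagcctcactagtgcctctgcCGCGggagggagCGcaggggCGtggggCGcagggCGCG
Notch3, chr17:32166841-32167140, minus strand: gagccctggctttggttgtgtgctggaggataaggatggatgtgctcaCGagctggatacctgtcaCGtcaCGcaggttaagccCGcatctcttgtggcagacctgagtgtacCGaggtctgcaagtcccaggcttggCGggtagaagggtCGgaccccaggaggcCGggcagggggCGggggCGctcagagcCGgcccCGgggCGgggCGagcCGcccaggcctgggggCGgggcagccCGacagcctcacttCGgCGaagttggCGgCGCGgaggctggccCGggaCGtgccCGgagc
Notch4, chr17:34564045-34564344, plus strand: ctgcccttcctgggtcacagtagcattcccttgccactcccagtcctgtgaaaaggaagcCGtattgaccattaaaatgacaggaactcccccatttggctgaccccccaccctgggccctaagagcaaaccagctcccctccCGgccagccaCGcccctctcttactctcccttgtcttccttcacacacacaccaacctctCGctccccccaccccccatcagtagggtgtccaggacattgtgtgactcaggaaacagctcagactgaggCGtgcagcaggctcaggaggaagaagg
Notch1 had 23 CpG and Notch3 25, against a median of 7 over the 32851 promoter windows of the table, whereas Notch4 had 5. Notch3 and Notch4, whose RNA was lower after Tet1/Tet2 knockdown (below 1 RPKM in every siTet1/Tet2 library), thus had windows of unlike CpG content. Notch2 and Jag1, whose RNA did not pass the test for a difference, had 41 and 22 CpG. Jag2 and Hey2, which were too low to be tested, had 63 and 29. The letters GTGGGAA, the core of the RBPJ site, were searched on both strands and occurred in 6.38% of all windows. They were in none of the 3 windows shown (0 matches), nor in those of Notch2, Jag1 and Jag2. Hes1, Hey1 and Heyl had no window and could not be searched. The Hey2 window held the letters in 2 places, in capitals here. The first starts 207 bases before the start and reads GTGGGAA on the opposite strand. The second starts 4 bases before it on the gene strand.
Hey2, first match: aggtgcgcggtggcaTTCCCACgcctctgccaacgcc
Hey2, second match: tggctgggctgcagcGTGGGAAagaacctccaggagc
A match describes the letters of the window and not a bound site.

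The cell type given in the labels was checked against marker genes first, since Notch genes are used by several cell types. Of the 12 stromal markers, Thy1 (CD90) and Lepr stayed under 1 RPKM in all 6 libraries, with a highest value of 0.146 RPKM for Thy1, while Pdgfra, a receptor of mesenchymal cells, went from 9.51, 8.65 and 11.6 RPKM (control) to 0.805, 0.934 and 1.09 RPKM (siTet1/Tet2). Col1a1 was the most abundant of them, with a control mean of 488.4 RPKM. The summed macrophage markers exceeded the summed stromal markers in every library. Lyz2, the most abundant of the 12, had a control mean of 4439 RPKM, and Ptprc, which encodes the leukocyte antigen CD45, had a mean of 52.6 ± 4.57 RPKM (SD, n = 3) in control and 53.0 ± 6.04 RPKM (SD, n = 3) in the siTet1/Tet2 group. Stromal markers summed to 1057, 987 and 1518 RPKM in control and to 191.5, 235.7 and 323.9 RPKM in the siTet1/Tet2 libraries. The summed macrophage markers went the other way, with 8616, 8130 and 6531 RPKM against 17311, 16022 and 14170 RPKM. The control mean of the stromal sum was 4.74 times the siTet1/Tet2 mean. It was 1.57 times without the collagens, and 3.78 times without the collagens and Vcam1, which rose from 16.9 to 55.9 RPKM. The macrophage sum was 2.04 times higher in siTet1/Tet2 cells, and 1.36 times without Lyz2. Of the stromal markers tested, 8 of 10 were lower and 1, Vcam1, was higher with an adjusted p under 0.05 (limma, Benjamini-Hochberg), and of the macrophage markers 2 of 12 were lower and 6 were higher. Among all genes tested, 29.8% were lower and 14.7% were higher, so that the share of lower macrophage markers (16.7%) was under that of all genes. In such bulk RNA, fewer cells of a type and less RNA per cell cannot be told apart, and the part of these shifts in the values of the Notch genes was not tested.

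**Figure D1:**
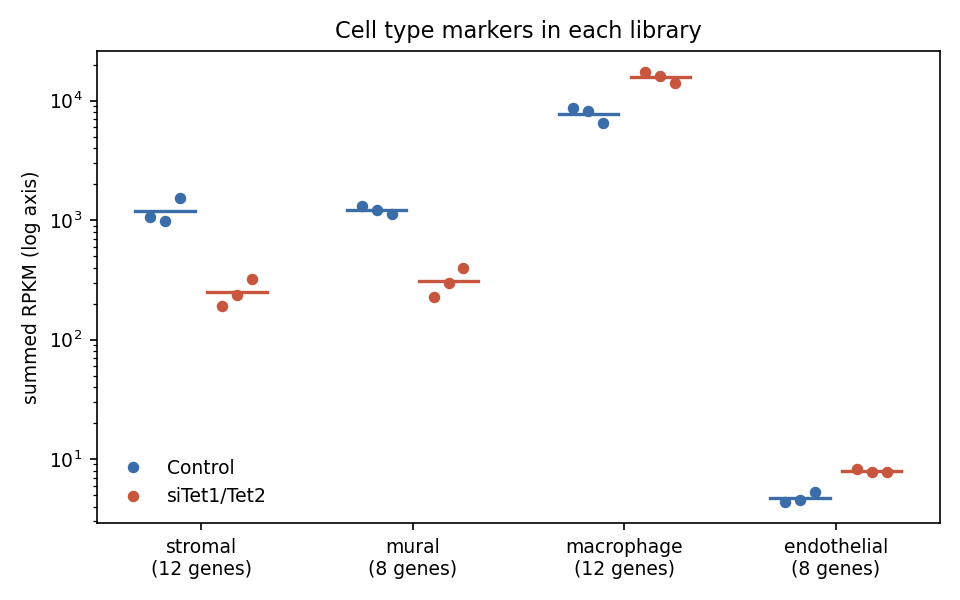
Summed RPKM (log axis) of 4 marker lists in each library, with a point for each library and a bar at the group mean of the 3 Control and 3 siTet1/Tet2 libraries. Stromal and mural sums were lower, and macrophage sums higher, in every siTet1/Tet2 library.

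The knockdown itself was visible for Tet2, at 2.57, 4.08 and 3.71 RPKM in the control and 0.358, 0.238 and 0.202 RPKM in the siTet1/Tet2 libraries. Tet1 was at 0.032, 0.098 and 0.05 RPKM in the control and 0.001, 0.01 and 0.001 RPKM in the siTet1/Tet2 libraries, where 0.001 is the lowest value the table lists. Tet3, which was not targeted, overlapped between the groups, with means of 7.03 and 7.66 RPKM (adjusted p = 0.508 from limma).

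For the question of how Notch genes differed after Tet1/Tet2 knockdown, log2(RPKM + 1) was compared with limma in all 13266 genes whose mean reached 0.1 RPKM. Fold changes on this scale understate those of low genes. Of the 10 Notch genes, 7 reached that mean. Hey1 and Notch1 were higher, Hes1, Notch3 and Notch4 were lower, and Notch2 and Jag1 did not pass the test. With an adjusted p under 0.05 (limma, Benjamini-Hochberg), 3 of the 7 were thus lower and 2 were higher, against 29.8% lower and 14.7% higher among all genes tested. The study set p under 0.05 and a more than 2-fold change for an altered gene, and the unadjusted p was used for this here. By these thresholds Hes1 was lower and Hey1 was higher, where 5.63% of all genes tested were lower and 0.95% were higher by that rule. This fold change is on the log2(RPKM + 1) scale. With the ratio of mean RPKM in its place Notch3 and Notch4 were altered too, which made 4 of the 7, where 11.8% of all genes tested were lower and 2.71% were higher. The median log2 fold change was -0.18 over the 7 genes and -0.09 over all genes tested. The former had no stable sign or size, being 0.14 over the 5 genes that averaged at least 1 RPKM, -0.02 after quantile normalization or without a minimum, and -0.04 without control replicate 3. With 3 libraries a group, an exact permutation test of a single gene cannot give a two-sided p below 0.1.

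**Figure D2:**
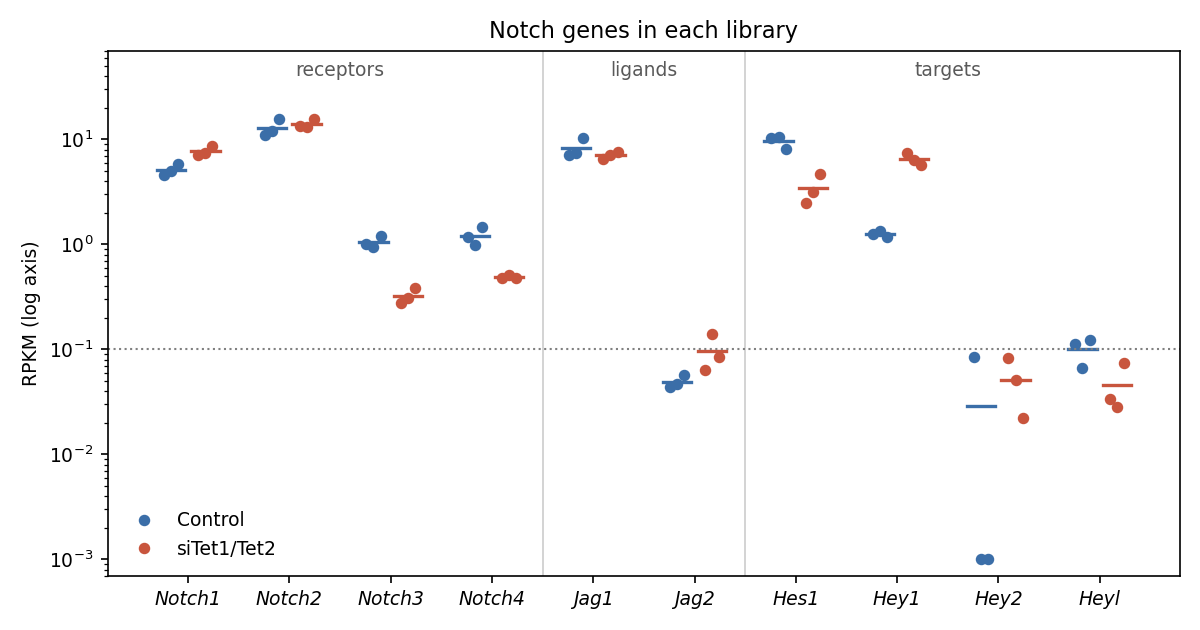
RPKM (log axis) of the 10 Notch genes in each library, with a point for each library and a bar at the group mean. The dotted line marks 0.1 RPKM. Hey1 points are higher, and Hes1, Notch3 and Notch4 points lower, in all 3 siTet1/Tet2 libraries than in any Control library.

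Among the receptors, Notch2 and Notch1 were the abundant pair. Notch2 lies on chromosome 3 of GRCm38 (98013527 to 98150361) and was at 10.9, 11.9 and 15.5 RPKM in the control and 13.5, 13.1 and 15.8 RPKM in the siTet1/Tet2 libraries. The groups overlapped, and the log2 fold change was 0.14 (95% interval -0.16 to 0.44, adjusted p = 0.408 from limma). The call rested on 1 library, since without control replicate 3, which had the highest Notch2 level of its group, the log2 fold change was 0.28 and the adjusted p from limma was 0.0456. The log2 fold change was 0.04 without control replicate 1 and 0.06 without siTet1/Tet2 replicate 3 (adjusted p = 0.815 and 0.751). Notch1, on chromosome 2 (26457903 to 26516663), was at 4.55, 5.03 and 5.86 RPKM in the control and 7.11, 7.37 and 8.62 RPKM in the siTet1/Tet2 libraries. Every siTet1/Tet2 library was above every control library, and the log2 fold change was 0.50 (SE 0.11, adjusted p = 0.00665 from limma). Without the minimum of 0.1 RPKM, over 36870 genes, the Notch1 call was lost (adjusted p = 0.0675).

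Notch3 and Notch4, the receptors best known from vascular smooth muscle and from endothelium, were lower. Notch3, on chromosome 17 (32120820 to 32166852), was at 1.02, 0.945 and 1.21 RPKM in the control and 0.278, 0.312 and 0.383 RPKM in the siTet1/Tet2 libraries, with no overlap. Its control mean was 3.26 times the siTet1/Tet2 mean, and on the log2(RPKM + 1) scale it fell by 0.63 (SE 0.08, adjusted p = 0.000295 from limma). Opposite-strand genes overlap several of the called genes in the GENCODE M21 annotation, namely Gm17276 at Notch3, 0610009E02Rik and Gm13568 at Notch1, Gm20462 at Notch4, and Gm10441 and Gm40304 at Rbpj. Without knowledge of the strand setting, reads of such pairs cannot be told apart. Of these, 0610009E02Rik is in the table, at the lowest value in all libraries. Notch4, also on chromosome 17 (34564268 to 34588503), was at 1.18, 0.99 and 1.47 RPKM in the control and 0.48, 0.513 and 0.474 RPKM in the siTet1/Tet2 libraries. The siTet1/Tet2 libraries lay close together and below all control libraries, with a log2 fold change of -0.57 (SE 0.09, adjusted p = 0.00131 from limma).

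Beside these 2 receptors, mural markers, those of smooth muscle cells and pericytes, summed to 1320, 1227 and 1116 RPKM in the control and 228.9, 297.8 and 395.5 RPKM in the siTet1/Tet2 libraries. Acta2, smooth muscle actin, was the most abundant. Acta2 and Tagln had control means of 787.7 and 414.5 RPKM, of a summed control mean of 1221 RPKM. Of the 7 mural markers tested, 5 (71.4%) were lower with 0 higher (limma, adjusted p under 0.05), beside 29.8% and 14.7% of all genes tested. Mcam (1.31 to 1.03 RPKM) and Cspg4 (0.192 to 0.214 RPKM) did not pass (adjusted p = 0.162 and 0.799 from limma). Rgs5 was near 0, at most 0.044 RPKM, and Myh11, smooth muscle myosin, was low and went from 0.414 to 0.0977 RPKM (adjusted p = 0.00436 from limma). Endothelial markers summed to between 4.39 and 5.27 RPKM in the control and between 7.74 and 8.24 RPKM in the siTet1/Tet2 libraries. Vwf, the most abundant, averaged 1.93 RPKM in the control and 6.10 RPKM in the siTet1/Tet2 libraries. Without Vwf the endothelial sum had the opposite direction, with 2.56, 2.78 and 3.11 RPKM in the control and 1.97, 1.76 and 1.82 RPKM in the siTet1/Tet2 libraries. Kdr, a VEGF receptor, went from 1.58 to 0.604 RPKM (adjusted p = 0.00031 from limma), and Emcn from 0.380 to 0.152 RPKM (adjusted p = 0.0194). Pecam1 and Esam were higher, from 0.175 to 0.377 RPKM (adjusted p = 0.0272 from limma) and from 0.156 to 0.409 RPKM (adjusted p = 0.0128). The defining endothelial genes Tek and Tie1 were at or near 0 throughout, at most 0.027 and 0.047 RPKM, and Cdh5 was at most 0.675 RPKM. Of the 6 endothelial markers tested, 2 (33.3%) were lower and 3 were higher, beside 29.8% and 14.7% of all genes tested.

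Within each library the receptor levels can be set against each other free of library scaling. Notch1 made up 25.7%, 26.6% and 24.3% of the summed RPKM of the 4 receptors in the control libraries and 33.3%, 34.7% and 34.1% in the siTet1/Tet2 libraries. Notch3 went from 5.26% ± 0.438 (SD, n = 3) to 1.43% ± 0.111 (SD, n = 3) and Notch4 from 6.02% ± 0.732 (SD, n = 3) to 2.18% ± 0.277 (SD, n = 3), each without overlap between the groups. The share of Notch2 overlapped, at 63.2% ± 1.37 (SD, n = 3) and 62.4% ± 0.846 (SD, n = 3). The summed receptor level also overlapped, with 17.7, 18.9 and 24.1 RPKM against 21.3, 21.2 and 25.3 RPKM.

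Of the ligands, Jag1 was the abundant one. Jag1, on chromosome 2 (137081456 to 137116644), encodes a membrane-bound ligand and was at 7.102, 7.495 and 10.272 RPKM in the control and 6.533, 7.12 and 7.675 RPKM in the siTet1/Tet2 libraries. The groups overlapped, with a log2 fold change of -0.18 (95% interval -0.49 to 0.12, adjusted p = 0.293 from limma). Control replicate 3 alone stood above 10 RPKM, and without it the log2 fold change was -0.04, as against -0.02 after quantile normalization of all libraries. The ratio of Notch1 to Jag1 RPKM within a library was 0.641, 0.671 and 0.570 in the control and 1.09, 1.04 and 1.12 in the siTet1/Tet2 libraries. The relative change of this ratio between groups does not depend on the gene lengths used for RPKM. Whether a ratio lies above or below 1 does, and those lengths are not known here. Jag2, on chromosome 12 (112907819 to 112929776), was at 0.044, 0.047 and 0.057 RPKM in the control and 0.064, 0.139 and 0.085 RPKM in the siTet1/Tet2 libraries, or about 8, 8 and 9 reads and about 12, 27 and 15 reads. It was under the minimum for the test, and its exact permutation p was 0.1, the smallest possible.

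The target genes Hes1 and Hey1 moved in opposite directions. Hes1, on chromosome 16 (30064384 to 30067796), encodes the repressor best known as a direct Notch target and was at 10.2, 10.6 and 8.08 RPKM in the control and 2.48, 3.13 and 4.72 RPKM in the siTet1/Tet2 libraries. All siTet1/Tet2 libraries were lower than all control libraries, and the log2 fold change was -1.29 (SE 0.18, adjusted p = 0.000736 from limma). Hey1, on chromosome 3 (8663359 to 8667256), a related repressor that Notch and BMP signals are both known to induce, was at 1.27, 1.35 and 1.19 RPKM in the control and 7.38, 6.36 and 5.68 RPKM in the siTet1/Tet2 libraries. Its mean rose 5.11-fold, and the log2 fold change was 1.72 (SE 0.10, adjusted p = 1.1e-05 from limma).

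The ratio of Hey1 to Hes1 within a library, which a common scaling cannot move, was 0.124, 0.127 and 0.147 in the control and 2.98, 2.03 and 1.20 in the siTet1/Tet2 libraries. Hes1 had the higher RPKM of the pair in all control libraries and Hey1 in all siTet1/Tet2 libraries. The spread was wide among the siTet1/Tet2 libraries. Replicate 3, with the highest stromal sum of that group, had the highest Hes1 and the lowest Hey1 level, and replicate 1, with the lowest stromal sum, had the lowest Hes1 and the highest Hey1 level. Among the control libraries, replicate 3 had the highest stromal sum and the lowest levels of both Hes1 and Hey1. In the siTet1/Tet2 libraries the mural sum had the same order as the stromal sum, and the macrophage sum the reverse order. A link of these sums to either gene was not tested.

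**Figure D3:**
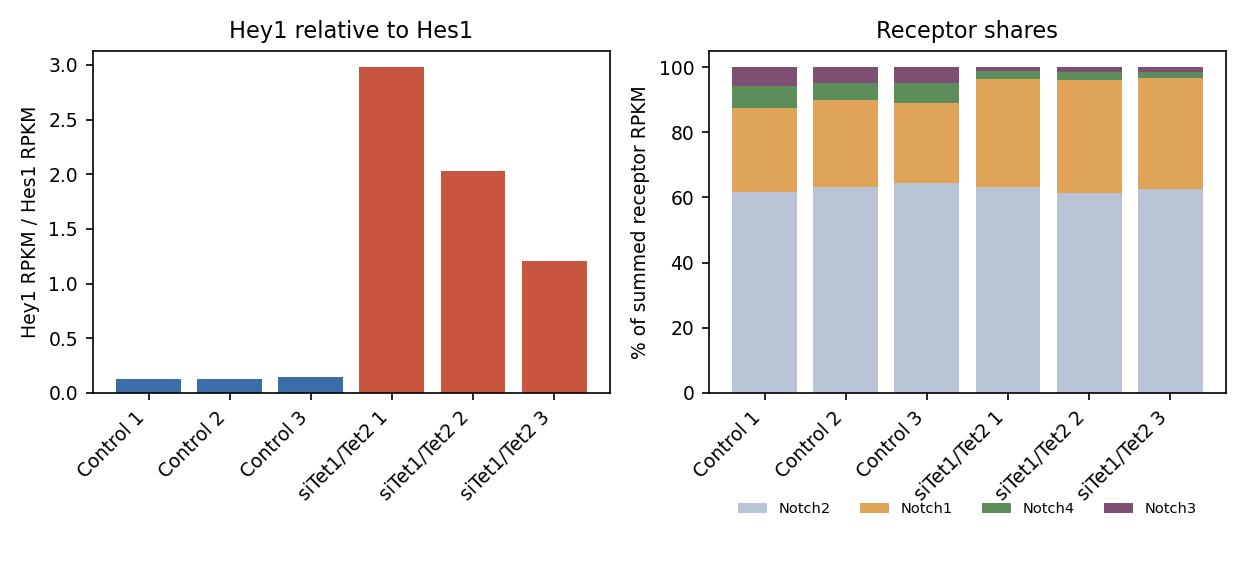
Left, Hey1 RPKM divided by Hes1 RPKM in each library. Right, the percent of the summed receptor RPKM that each of the 4 Notch receptors made up in each library. The ratio is under 0.15 in the Control and over 1 in the siTet1/Tet2 libraries, and the shares of Notch3 and Notch4 are smaller in the siTet1/Tet2 libraries.

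The other 2 targets were near the detection limit. Heyl, on chromosome 4 (123233556 to 123249875), known from vascular smooth muscle, was at 0.112, 0.066 and 0.122 RPKM in the control and 0.034, 0.028 and 0.075 RPKM in the siTet1/Tet2 libraries. The groups overlapped, at about 19, 10 and 18 reads against about 6, 5 and 12 reads (exact permutation p = 0.2, two-sided). Hey2, on chromosome 10 (30832359 to 30842801), a regulator of heart and vessel development, was listed at 0.084, 0.001 and 0.001 RPKM in the control and 0.082, 0.051 and 0.022 RPKM in the siTet1/Tet2 libraries, or at most about 8 reads, too few for a difference to be detectable.

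Among the 7 genes tested, the groups did not overlap for 5, or 71.4%, against 55.7% of all genes tested. By level, Notch2 ranked first in both groups, apart from the next gene in every library. In the control group Hes1 and Jag1 followed, with overlapping ranges, and then Notch1. Hey1, Notch4 and Notch3 lay together near 1 RPKM, with overlapping ranges between neighbours. In the siTet1/Tet2 group Notch1, Jag1 and Hey1 followed Notch2, again with overlapping ranges between neighbours, and Hes1 came below them.

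The rest of the pathway was examined with 44 further genes, of which 36 reached 0.1 RPKM. With an adjusted p under 0.05 (limma, Benjamini-Hochberg), 8 were lower and 10 were higher, or 22.2% and 27.8%, beside 29.8% and 14.7% of all genes tested. The count of higher genes depended on the scaling of the libraries, since rescaling each to the same sum gave 8 lower and 6 higher and quantile normalization gave 6 lower and 16 higher. None of the 36 (0 genes) changed by more than 2-fold on the log2(RPKM + 1) scale, whose pseudocount shrinks the folds. By the ratio of mean RPKM, a count added after seeing the data, 5 did, namely Dlk2 (4.498 times lower), Dner (3.01 times higher), Neurl1b (2.19 times higher), Rbpj (2.06 times lower) and Dtx4 (2.03 times higher). These 2 lower and 3 higher genes of 36 stand beside 11.8% lower and 2.71% higher among all genes tested by that rule. On the log2(RPKM + 1) scale, 5.63% of all genes tested were lower and 0.95% higher by more than 2-fold (unadjusted p under 0.05, limma).

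**Figure D4:**
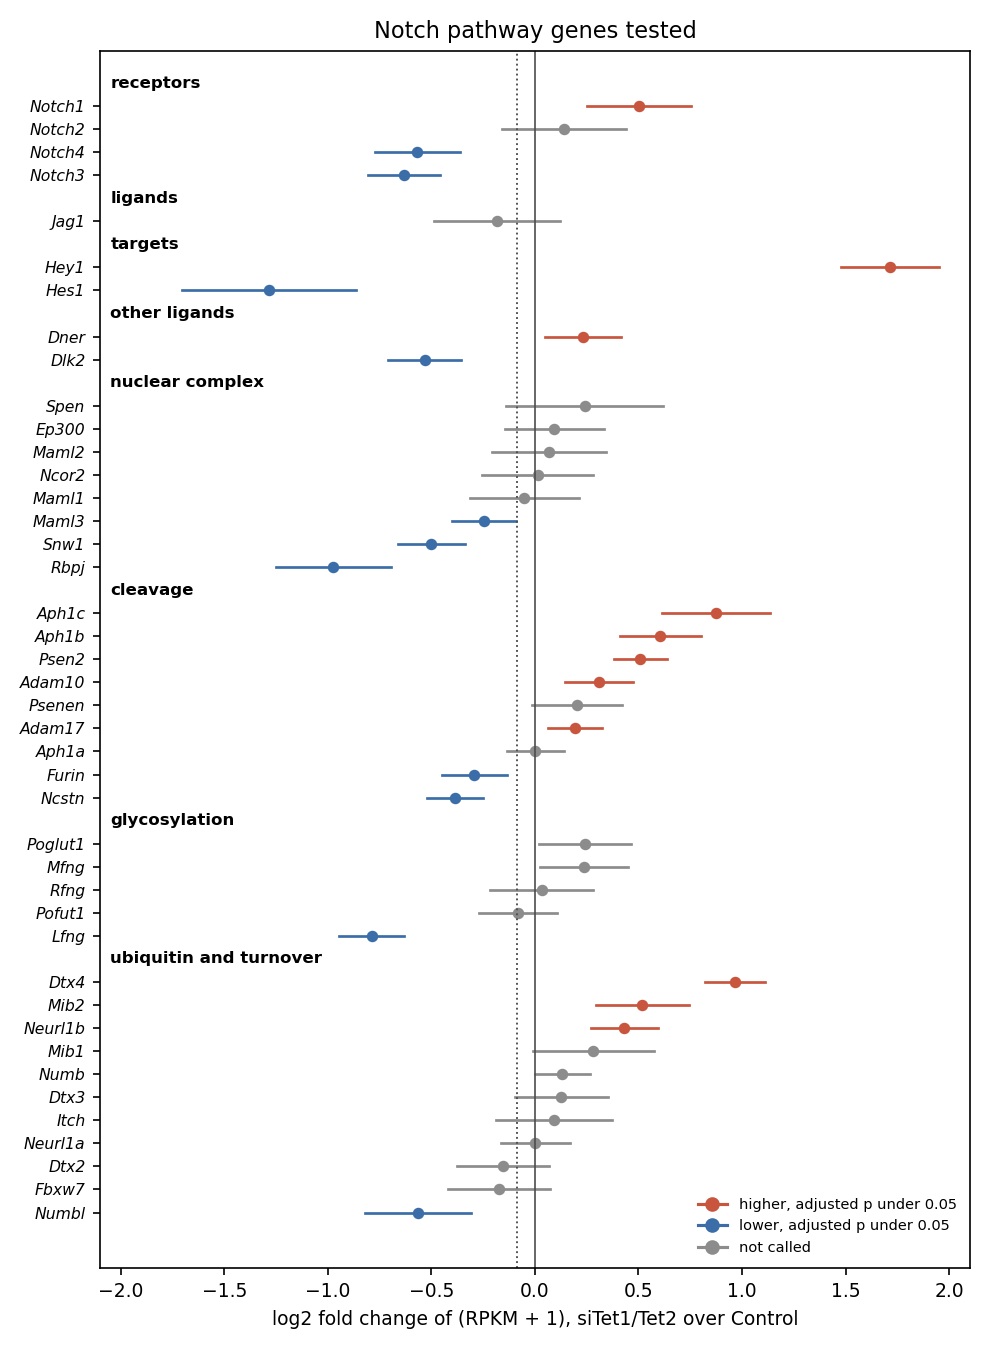
Log2 fold change of RPKM + 1, siTet1/Tet2 over Control, for the Notch pathway genes tested, apart from 1 not reported here, grouped by role. Points are limma estimates, lines their 95% intervals, colours the call, and the dotted line the median of all genes tested. Rbpj and Lfng lie to the left and Dtx4, Aph1c and Psen2 to the right of 0.

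In the nuclear complex, 3 of 8 genes, or 37.5%, were lower and 0 were higher, beside 29.8% and 14.7% of all genes tested. Rbpj, the DNA-binding protein through which all Notch receptors act, was at 16.8, 19.4 and 20.7 RPKM in the control and 8.15, 8.50 and 11.0 RPKM in the siTet1/Tet2 libraries. Every siTet1/Tet2 library was below every control library, with a log2 fold change of -0.97 (SE 0.12, adjusted p = 0.000364 from limma). Snw1, a splicing factor that also binds the Notch complex, went from 57.1 to 40.1 RPKM on average. Maml3, a Mastermind coactivator, went from 1.34 to 0.969 RPKM (adjusted p = 0.0179 from limma), and its log2 fold change of -0.25 became 0.01 after quantile normalization (adjusted p = 0.929). The coactivators Maml1 and Maml2 and the histone acetyltransferase Ep300 did not pass the test.

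Of the 10 genes that cleave the receptor, 6 (60.0%) were higher and 2 (20.0%) were lower, beside 14.7% and 29.8% of all genes tested. Psen2, a catalytic subunit of gamma-secretase, was at 58.6, 55.4 and 54.8 RPKM in the control and 80.4, 82.1 and 78.8 RPKM in the siTet1/Tet2 libraries, without overlap (log2 fold change 0.51, SE 0.06, adjusted p = 0.000185 from limma). Aph1c and Aph1b encode the scaffold subunit of the same enzyme, and their mean levels went from 7.78 to 15.0 RPKM and from 2.68 to 4.59 RPKM. They are close paralogs, and reads may have been split between them. Ncstn, another subunit of gamma-secretase, went the other way, from 84.7 to 64.5 RPKM (adjusted p = 0.00102 from limma). It stayed lower under each of the other scalings, with a highest adjusted p of 0.00715 (limma). The calls of the less changed genes depended on scaling, since Adam10 and Adam17 lost theirs when the libraries were rescaled to the same sum (adjusted p = 0.0564 and 0.157 from limma). After quantile normalization Furin, a protease that cuts the receptor on its way to the membrane and was lower (adjusted p = 0.00889), lost its call (0.0746), and Psenen, a subunit of gamma-secretase that had not passed (0.116), was higher (0.0223), as it was with median ratio scaling (0.0369).

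Of the 5 glycosylation genes, 1 (20.0%) was lower and 0 were higher, with 29.8% and 14.7% over all genes tested. Lfng, a Fringe glycosyltransferase that alters which ligands a receptor answers to, was at 56.3, 55.3 and 55.7 RPKM in the control and 29.2, 32.7 and 33.9 RPKM in the siTet1/Tet2 libraries. The control libraries differed little, and the log2 fold change was -0.79 (SE 0.07, adjusted p = 5.76e-05 from limma). Poglut1, which adds glucose to the receptors, went from 11.3 to 13.6 RPKM and did not pass (adjusted p = 0.0735 from limma), but passed with the replicate number as a block (adjusted p = 0.0186), with median ratio scaling (0.0301) and after quantile normalization (0.0214). Mfng, another Fringe enzyme, likewise passed with those 2 scalings (adjusted p = 0.0259 and 0.00581 from limma) and not without them (0.0667).

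Among 11 genes tested for ubiquitination and turnover, 3 (27.3%) were higher and 1 (9.09%) was lower, where 14.7% and 29.8% of all genes tested were. Dtx4, a Deltex ubiquitin ligase, was at 13.3, 12.6 and 13.2 RPKM in the control and 27.5, 26.4 and 25.4 RPKM in the siTet1/Tet2 libraries, with a log2 fold change of 0.97 (SE 0.06, adjusted p = 1.69e-05 from limma). Mib2, a ubiquitin ligase that acts on Notch ligands, went from 11.2 to 16.4 RPKM (adjusted p = 0.00307 from limma), and Numbl, of the Numb family of Notch inhibitors, went from 7.60 to 4.78 RPKM (adjusted p = 0.00408). Mib1, the main ligase of Notch ligands, did not pass (adjusted p = 0.105 from limma), but passed with the replicate number as a block (adjusted p = 0.00969), with median ratio scaling (0.0346) and after quantile normalization (0.0300). Numb did not pass either (adjusted p = 0.0961 from limma), but passed with median ratio scaling (0.0148) and after quantile normalization (0.00881). Dtx3, with an adjusted p of 0.313, passed after quantile normalization (0.0314, limma).

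Other ligands were scarce. Dlk2, a Delta-like protein without the domain that activates Notch, was at 0.623, 0.575 and 0.772 RPKM in the control and 0.11, 0.099 and 0.229 RPKM in the siTet1/Tet2 libraries, a decrease (log2 fold change -0.53, adjusted p = 0.000796 from limma). Dner was at 0.059, 0.124 and 0.11 RPKM and at 0.378, 0.156 and 0.349 RPKM (adjusted p = 0.0439 from limma, and 0.0536 with the libraries rescaled to the same sum). Dll1 stayed at or below 0.133 RPKM, Dll4 at or below 0.068 RPKM and Dlk1 at or below 0.035 RPKM, and Dll3 was listed at the lowest value in all libraries. The further targets Hes5, Hes7 and Nrarp were all under 0.15 RPKM, with Hes5 at the lowest value in all libraries.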

How the data were processed

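Adaptor trimming, mapping to GRCm38 and abundance estimation were done by the authors in DNASTAR Lasergene, and they deposited 1 table of linear RPKM values for the 6 libraries (the methods call the unit FPKM). Its p-value column holds the authors' own comparison and was not used. Annotation release, strand setting and treatment of multiply mapped reads are not given in the sources used here. Of the rows of each of 37 repeated symbols, that with the highest mean was used, and log2(RPKM + 1) of the 13266 genes averaging at least 0.1 RPKM was compared between groups with limma 3.58.1 in R 4.3.3 (eBayes with trend, two-sided, Benjamini-Hochberg over all genes tested). The fit was checked on simulated data.

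The members and lists were chosen with earlier results of these data known. All 10 members were to be named, and of the other pathway genes, per list, up to 3 that averaged at least 1 RPKM and had the largest changes among those with an adjusted p under 0.05, besides Rbpj and the ligands. Further genes are named where a scaling or the replicate block changed their call, and Neurl1b for its ratio of mean RPKM. Ncstn, Maml1, Maml2, Ep300, Hes5, Hes7 and Nrarp were named after their values were seen. In the cleavage list, 1 gene is counted but its values are not reported here. Marker lists were stromal, macrophage, endothelial and mural, and the genes left out of their sums were chosen after their values were seen.

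Depth was estimated in Python 3.11.15 by scaling low values of genes with 1 GENCODE M21 transcript until most were near whole reads. Between 60.5% and 67.4% of them lay within 0.1 of one, so no count test was run, and reads of single genes, computed with the longest transcript, are approximate. Intervals are 95% intervals from limma.

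The sample labels give both groups replicate numbers 1 to 3. Deviations from the group means correlated across genes with r = 0.149, 0.117 and 0.462 for numbers 1, 2 and 3, so the numbers were used as a block in a further fit. This pairing rests on the values alone, and 2 unlike pairs also correlated, control replicate 1 with siTet1/Tet2 replicate 2 (0.332) and control replicate 2 with siTet1/Tet2 replicate 1 (0.205). The other alternatives were other pseudocounts, filters, scalings and variance settings, summed rows and leaving out each library.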

Additional observations from a re-analysis of the deposited data

How the results depend on the processing

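Hey1, Hes1, Notch3 and Notch4 held their direction and stayed under 0.05 in adjusted p in every alternative that tested them, with highest adjusted p of 0.00282, 0.0369, 0.0111 and 0.029 (limma). Notch1 lost its call only without a filter on low values (adjusted p = 0.0675 over 36870 genes), which left 1 Notch gene higher in place of 2. A minimum mean of 1 RPKM removed Notch3 and Notch4 and left 1 Notch gene lower in place of 3. The number altered by more than 2-fold was 2, and 4 with a pseudocount of 0.1 or 0.01 or when fold changes were taken between mean RPKM values, since a pseudocount of 1 shrinks low genes by construction. For the other pathway genes that number was 0, and 3, 5 and 5 by these alternatives, added after seeing the data. Leaving out 1 replicate left 3 genes lower and gave 2 or 3 higher, the third being Notch2 without control replicate 3.

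The median log2 fold change of the Notch genes, -0.18, was -0.0202 without a filter and -0.0225 after quantile normalization, and 0.14 with a minimum mean of 1 RPKM, where Notch3 and Notch4 were not tested. Leaving out 1 replicate gave -0.2735 to -0.0353, the latter without control replicate 3. The median of all genes tested was -0.09, -0.13 when libraries were set to equal sums, -0.01 by median ratio scaling and 0.06 after quantile normalization, so small changes are relative to the scaling. The number of higher pathway genes, 10, became 6 with rescaling to the same sum and 16 after quantile normalization, and 7 to 10 with 1 replicate left out, with 7 without control replicate 1, control replicate 2 or siTet1/Tet2 replicate 1. Lower pathway genes numbered 7 or 8 with 1 replicate left out. With the replicate block, 3 Notch genes were lower and 2 higher and 8 pathway genes were lower and 12 higher, and it changed no call other than those of Poglut1 and Mib1. Values of Jag2, Hey2 and Heyl rest on few reads, so their fold changes moved with the pseudocount.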
